A study of Homo sapiens with 46 samples.

Results

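The comparison described here is between H1 cells infected with a lentivirus carrying a hairpin against TCOF1 (shTCOF1) and H1 cells infected with a control hairpin (shControl), both after 3 days of neural conversion (neural day 3, ND3) in a medium that the labels call NIM. H1 is an established human embryonic stem cell line. Each hairpin has 1 mRNA library and 1 ribosome footprint library whose title carries no replicate number, so 4 libraries are compared. A further 4 libraries, 2 per assay, come from ND3 shControl cells with numbered titles and are used as a measure of the spread between control libraries (called numbered control 1 and numbered control 2). These 8 libraries are of 46 in the series. The compared libraries belong to a set that also holds, in each assay, 1 shTCOF1 library and 2 shControl libraries of undifferentiated cells (hES). The others in the series hold undifferentiated cells and cells at neural days 1 and 6 (ND1 and ND6), and cells with a hairpin against KBTBD8 (shKBTBD8).

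TCOF1 encodes treacle, a nucleolar phosphoprotein that binds RNA polymerase I and supports the transcription and processing of ribosomal RNA. Loss of one copy causes Treacher Collins syndrome, in which structures that derive from the cranial neural crest are underdeveloped. KBTBD8 recruits substrates to the ubiquitin ligase built on CUL3, and treacle is a known substrate of that ligase. Ribosome footprints are the stretches of mRNA that ribosomes shield from nuclease, so that their number reflects how many ribosomes sit on a transcript.

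Several limits apply to all values. The hairpin sequence, the number of hairpins and the number of cultures are not given in the labels. The identifiers of the files (UCSC transcript identifiers) matched 0 entries of the gene tables used here, so the level of TCOF1 itself, pathway genes and markers of hES or neural cells were not analysed here and could not check the labels. Transcripts are therefore described by what they did in the other libraries of the series. In whole cultures, fewer cells of a type and less RNA per cell cannot be told apart. With 1 library per hairpin and assay there is no replicate check, and nothing in the labels says that the numbered controls came from separate cultures, so their spread may be technical.

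On 1 row per transcript, the 8 libraries held 20.9 to 28.9 M counts in mRNA and 3.95 to 7.68 M in footprints. The shControl footprint library of the comparison had many transcripts at 0 for its depth. It was the deepest of the 7 footprint libraries at ND3, with 7.68 M counts, yet 13.2% of its 17680 transcripts had no count. This share was 2.44% in shTCOF1, 8.96% in the shKBTBD8 library without a replicate number, and 1.56% and 8.3% in numbered controls 1 and 2. In the numbered shKBTBD8 libraries it was 1.69% in replicate 1 and 21.8% in replicate 2, which held 2.38 M counts. At hES, shControl replicate 2 of the same set had 16.4% at 6.41 M counts. Zeros were also counted among transcripts with at least 10 counts in each of the other libraries of a group of 5, the compared pair, the unnumbered shKBTBD8 library and the numbered controls. Such zeros numbered 0 of 12961 in shTCOF1, 95 of 13337 (0.712%) in shKBTBD8, 240 of 13311 (1.8%) in shControl, 0 of 13016 in numbered control 1 and 64 of 13235 (0.484%) in numbered control 2. The mRNA of the shControl library also differed from both numbered controls by more than those differed from each other. For the counts, the calls and the transcripts given by identifier, values against the numbered controls are therefore given as well. Differences by class, scores per library and the comparison with shKBTBD8 take only the shControl library as control for shTCOF1.

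The first question was how far the mRNA of shTCOF1 cells differed from that of shControl cells at ND3. The difference was small in number and even in direction. Of 15757 transcripts whose counts averaged at least 50 over both libraries, 99 (0.628%) were at least 2-fold higher in shTCOF1 and 103 (0.654%) at least 2-fold lower, on log2 CPM (counts scaled to a common library total) with TMM factors and a prior count of 2. The standard deviation of the difference over these transcripts was 0.30 (log2). Between the numbered controls it was 0.31, with 0 of 15633 transcripts at least 2-fold higher in control 1 than in control 2 and 66 (0.422%) at least 2-fold lower. The bulk of transcripts thus varied between shTCOF1 and shControl about as much as between controls, while transcripts past 2-fold were more frequent, at 1.28% in all against 0.422%. At a mean count of at least 200 the shares were 0.706% of 12321 transcripts for shTCOF1 against shControl and 0.406% of 11834 between the numbered controls.

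The numbered controls differed more from the compared libraries than these did from each other. Against numbered control 1, 470 transcripts (3.01%) were past 2-fold in shTCOF1 and 495 (3.18%) in shControl. Against numbered control 2, the counts were 538 (3.39%) in shTCOF1 and 643 (4.07%) in shControl. The shKBTBD8 library of the same naming style had 305 transcripts (1.93%) past 2-fold against the same shControl library, a comparison that shares this control with the one for shTCOF1.

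**Figure D1:**
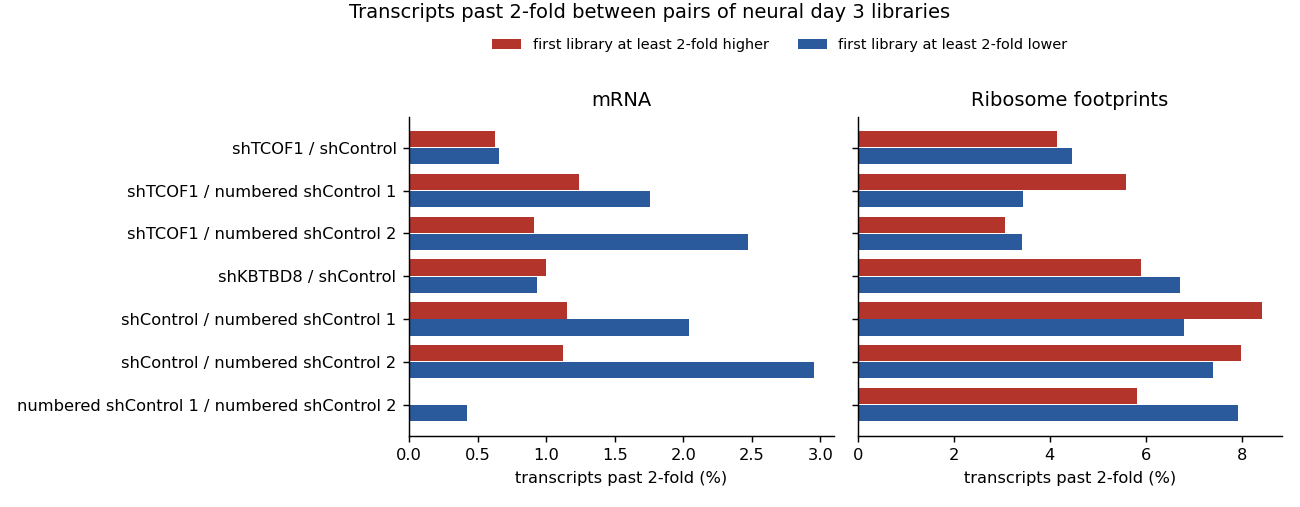
Percent of transcripts at least 2-fold higher (red) or lower (blue) in the first of 2 ND3 libraries, for mRNA (left) and footprints (right), at a mean count of at least 50 over the pair; each bar is 1 pair of single libraries. In mRNA, shTCOF1 against shControl (0.628% and 0.654%) lies above the numbered control pair (0% and 0.422%) but below every pair that joins a numbered and an unnumbered library; in footprints it (4.15% and 4.46%) lies below the numbered control pair (5.81% and 7.92%).

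Most of the 202 transcripts past 2-fold also lay outside the range of all 3 controls. Of the 99 higher ones, 68 were above shControl and both numbered controls, and of the 103 lower ones, 83 were below all 3. Over all 15757 transcripts, 3652 (23.2%) lay above all 3 controls and 3439 (21.8%) below. The 202 were picked by their distance from shControl, which is among the 3 controls, so only the numbered controls add to that choice. The shares over all transcripts carry no such choice and are not a like measure. When a 2-fold distance from each of the 3 controls was required, 28 transcripts (0.178%) were higher and 39 (0.248%) lower in shTCOF1.

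The 202 transcripts were of low to moderate abundance. The median level over shTCOF1 and shControl was 1.85 log2 CPM for the higher ones and 2.44 for the lower ones, against 4.37 for all transcripts. When all transcripts were split by abundance into 4 bins of equal size, the lowest bin held 69 higher and 61 lower transcripts, 3.3% of the bin. The highest bin held 3 higher and 9 lower ones (0.305%). The median difference was 1.19 among the higher transcripts and -1.37 among the lower ones (log2). They came from 174 stretches of neighbouring rows, so that a few share a locus; 4 stretches held both a higher and a lower transcript.

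The second question was whether ribosome footprints followed the mRNA. Among the transcripts past 2-fold in mRNA they did in sign. Of the 99 higher transcripts, 28 had enough footprint counts, and 27 of these had a positive footprint difference, 16 of them at least 2-fold. The remaining transcript was at least 2-fold lower in footprints. Of the 103 lower transcripts, 50 had enough footprint counts, 49 had a negative difference, and 37 were at least 2-fold lower. The median footprint difference was 1.18 in the higher and -1.28 in the lower transcripts (log2), and the median footprint difference less the mRNA difference was -0.19 and 0.01. Of all 11413 transcripts with enough counts in both assays, 5604 had a positive and 5809 a negative footprint difference. At least 2-fold higher in footprints were 474 of these, and at least 2-fold lower 491. The footprint and mRNA libraries of a hairpin are separate libraries, but whether they came from 1 culture is not stated.

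**Figure D2:**
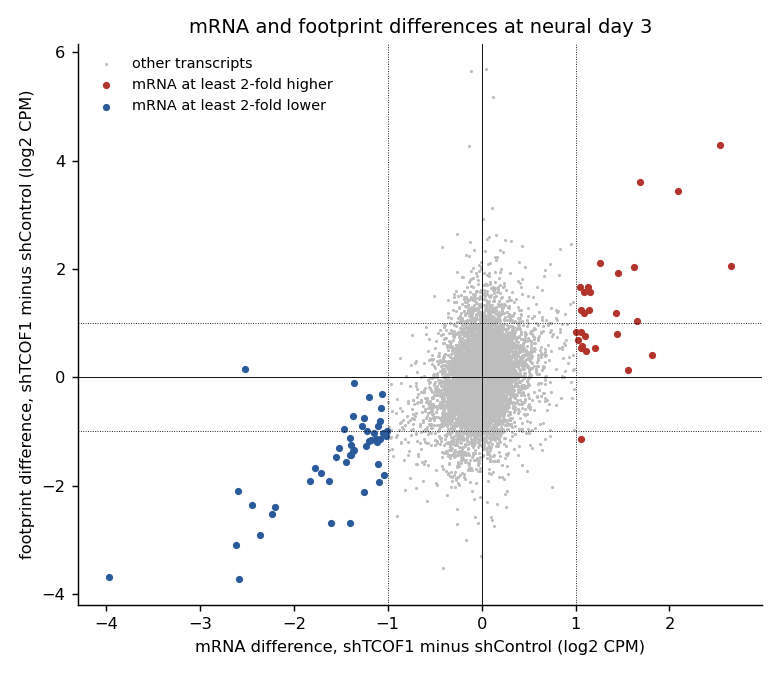
Difference between shTCOF1 and shControl at ND3 in mRNA (x axis) and in footprints (y axis), both in log2 CPM, for the 11413 transcripts whose counts averaged at least 50 in both assays; each point is 1 transcript and dotted lines mark 2-fold. Red points are at least 2-fold higher in mRNA (28) and blue points at least 2-fold lower (50); all but 1 of each lie on the same side of 0 in footprints.

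Over all transcripts, footprints differed between shTCOF1 and shControl by no more than between the numbered controls. At a mean count of at least 50, 476 of 11472 transcripts (4.15%) were at least 2-fold higher in shTCOF1 and 512 (4.46%) at least 2-fold lower, 8.61% in all. Between the numbered controls 1442 of 10499 (13.7%) were past 2-fold. At a mean count of at least 200 the shares were 1.93% of 5919 transcripts for shTCOF1 against shControl and 11.7% of 4513 between the numbered controls. At that limit, shTCOF1 and shControl had 8.45% and 9.79% past 2-fold against numbered control 1. Against numbered control 2 they had 2.22% and 5.51%. At a mean count of at least 50 these shares were 9.02% and 15.2% against control 1, and 6.47% and 15.4% against control 2. Of all transcripts, 18 (0.157%) were at least 2-fold above each of the 3 controls in footprints and 31 (0.27%) at least 2-fold below each. Against the mean of the numbered controls, without the shControl library, 264 transcripts were higher and 166 lower in shTCOF1. Across transcripts, which are not independent replicates, the mRNA and footprint differences had a Pearson's r of 0.33 over 11413 transcripts and of 0.46 over the 5912 with a mean footprint count of at least 200. The 4 libraries behind these points are the same for every transcript.

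A model over all libraries gave few calls. In edgeR's quasi-likelihood test over the 23 libraries of an assay (14 groups, 9 residual degrees of freedom), the spread comes from the groups of 2 libraries, and the lone shTCOF1 and shControl libraries are assumed to vary like those. At a Benjamini-Hochberg adjusted p under 0.05, 4 of 17665 transcripts (0.0226%) were higher in shTCOF1 mRNA and 9 (0.0509%) lower, 0.0736% in all, with 765 at an unadjusted p under 0.05. Of these 13 transcripts, 2 lay above and 7 below all 3 ND3 controls, and the 13 came from 12 stretches of rows. With the numbered controls in place of the shControl library, 152 were higher and 277 lower. That contrast also holds whatever else differs between the numbered and unnumbered libraries. With all 3 controls as 1 group, 12 were higher and 5 lower.

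In footprints, edgeR called 5 of 17436 transcripts (0.0287%) higher in shTCOF1 and 0 lower, with 946 at an unadjusted p under 0.05. DESeq2 called 13 higher and 1 lower. The 5 calls had 45 to 285 counts in shTCOF1, 0 to 31 in shControl with 3 of the 5 at 0, and 42 to 262 and 50 to 298 in numbered controls 1 and 2. Only 1 of the 5 lay above all 3 controls, and the shTCOF1 counts overlapped those of both numbered controls. With the numbered controls in place of the shControl library, 3 transcripts were higher and 4 lower. With all 3 controls as 1 group, edgeR called 0 transcripts in footprints (167 at an unadjusted p under 0.05).

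The ratio of footprints to mRNA, called translational efficiency (TE), was tested with an interaction term between assay and hairpin over all 46 libraries. TE was higher in shTCOF1 for 41 of 17680 transcripts (0.232%) and lower for 0, with 1442 at an unadjusted p under 0.05 in edgeR, and DESeq2 called 54 higher and 2 lower. The 41 transcripts had 21 to 145 footprint counts in shTCOF1 (median 43). In shControl they had 0 to 5, with 35 of the 41 at 0. In the numbered controls they had 11 to 136 (median 34) and 5 to 175 (median 41). The shTCOF1 counts thus overlapped those of both numbered controls, and the shControl counts lay at or below the lowest of them. Without that library, and with the numbered controls as reference, 5 transcripts were higher and 1 lower. The part of the shControl library in the 41 calls was not tested otherwise.

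The third question was whether the transcripts that differed in mRNA had a common course during neural conversion. Their course was read in the numbered libraries, which hold shControl and shKBTBD8 at all 4 stages with 2 libraries per group, and which share no library with the compared ones. The 103 transcripts that were lower in shTCOF1 belong mostly to those that rise late. In numbered control cells their median level relative to hES was 0.00 at ND1, 2.02 at ND3 and 3.25 at ND6 (log2), against 0.01, 0.03 and 0.02 over all 15757 transcripts. The 99 that were higher in shTCOF1 had an early peak in the median, of 0.73 at ND1, 0.33 at ND3 and -0.55 at ND6. Their courses were mixed, with quartiles of -1.28 and 1.84 at ND3.

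**Figure D3:**
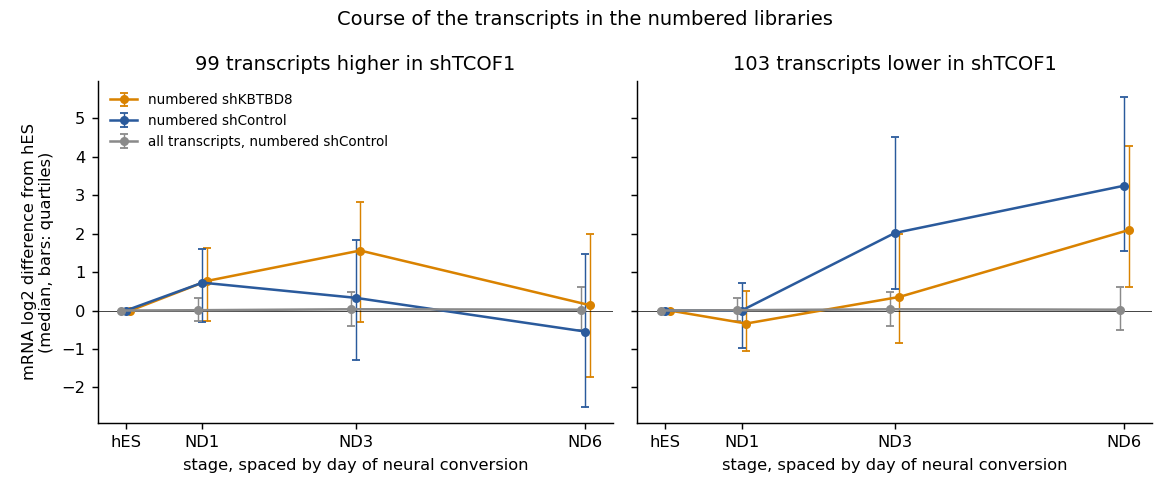
mRNA level relative to hES (log2, y axis) by stage (x axis, spaced by day) in the numbered shKBTBD8 (orange) and shControl (blue) libraries, for the transcripts higher (left) and lower (right) in shTCOF1 at ND3, with all transcripts of the shControl libraries in grey; points are medians over transcripts of the mean of 2 libraries, bars span the quartiles. The 103 lower transcripts reach 0.35 at ND3 and 2.10 at ND6 in shKBTBD8, and 2.02 and 3.25 in shControl; the 99 higher ones are at 1.56 and 0.14 in shKBTBD8 and at 0.33 and -0.55 in shControl.

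Classes of transcripts were then defined in the numbered libraries by a change of 2-fold or more with an edgeR adjusted p under 0.05. Of the 103 lower transcripts, 70 (68.0%) were in the class that rises in control cells between ND1 and ND3, which holds 6.97% of all transcripts. In the class that rises between ND3 and ND6 there were 49 (47.6%), against 3.0% of all. These 49 were 10.4% of that class. Only 3 of the 103 fell between ND1 and ND3, and 5 between ND3 and ND6. Of the 99 higher transcripts, 41 (41.4%) were in the class that falls between ND1 and ND3 (5.03% of all) and 38 (38.4%) in the class that falls between ND3 and ND6 (2.95% of all). A further 37 (37.4%), some of them in those classes too, were in the class that rises between hES and ND1 (5.44% of all). Between hES and ND3, 38 of the 99 (38.4%) were in the class that rises (10.1% of all). The class that falls over that span held 33 (33.3%), against 6.56% of all.

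Over whole classes the differences were smaller. The 473 transcripts that rise between ND3 and ND6 had a median mRNA difference of -0.21 between shTCOF1 and shControl at ND3 (log2), with 67.0% negative, and the 465 that fall had a median of 0.21, with 74.0% positive. Over all transcripts the median was 0.00. The classes that rise and fall between hES and ND3 had medians of 0.03 and 0.05. For the set of transcripts that falls between ND1 and ND3 it was 0.18, and for the set that rises -0.10. In footprints the class that rises between ND3 and ND6 had a median of -0.37 (213 transcripts) and the class that falls 0.15 (232 transcripts). In undifferentiated cells, shTCOF1 against 2 shControl libraries gave medians of -0.10 and 0.05 for these classes in mRNA.

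A score per library, the mean log2 CPM of the class that rises between ND3 and ND6 less that of the class that falls, was -0.90 in shTCOF1 and -0.32 in shControl mRNA at ND3. In undifferentiated cells it was -1.32 in shTCOF1, and -1.10 and -1.24 in the shControl libraries. In footprints at ND3 it was -0.95 in shTCOF1 and -0.27 in shControl. The shKBTBD8 library without a replicate number had 0.30 in mRNA and 0.21 in footprints, on the opposite side of shControl from shTCOF1. A score over the classes that rise and fall between hES and ND3 was -0.21 in shTCOF1 and -0.10 in shControl mRNA at ND3, against -3.25 in shTCOF1 and -3.33 and -3.25 in shControl at hES.

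The fourth question was how the shTCOF1 difference compares with that of shKBTBD8, since treacle is a substrate of the KBTBD8 ligase. Against the numbered libraries, the direction was shared at ND3. In those, shKBTBD8 less shControl had a median of 1.31 over the 99 higher transcripts and -1.70 over the 103 lower ones at ND3 (log2), and 0.00 over all transcripts. It was positive for 93 of the 99 and negative for 96 of the 103. At least 2-fold in the same direction were 61 of the 99 and 78 of the 103. Over all 15757 transcripts, 7974 were positive and 7783 negative, and 292 were at least 2-fold higher and 291 at least 2-fold lower in shKBTBD8.

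At the other stages the same contrast was smaller. Its medians over the higher and the lower transcripts were 0.10 and -0.06 at hES, 0.14 and -0.21 at ND1, and 0.66 and -0.91 at ND6. In numbered shKBTBD8 cells the 103 lower transcripts stood at 0.35 relative to hES at ND3 and at 2.10 at ND6, against 2.02 and 3.25 in numbered shControl cells.

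The classes set by shKBTBD8 in the numbered libraries differed in the same direction under shTCOF1 for most of their members. Of the 251 transcripts higher in numbered shKBTBD8 at ND3, 94.0% had a positive shTCOF1 difference at ND3, with a median of 0.63, 58 at least 2-fold higher and 1 at least 2-fold lower. These 58 are 58.6% of the 99 higher transcripts and 23.1% of the class, which holds 1.59% of all transcripts. Of the 261 transcripts lower in numbered shKBTBD8 at ND3, 93.1% had a negative difference, with a median of -0.65, 75 at least 2-fold lower and 1 at least 2-fold higher. These 75 are 72.8% of the 103 lower transcripts and 28.7% of the class, which holds 1.66% of all transcripts. In footprints the medians were 0.49 (116 transcripts) and -0.74 (154 transcripts). The classes set at ND6 had mRNA medians of 0.49 and -0.55. All 4 transcripts that edgeR called higher in shTCOF1 mRNA were in the class higher in numbered shKBTBD8, and all 9 called lower were in the class that was lower there.

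The unnumbered shKBTBD8 library at ND3 had smaller medians in the classes set at ND3. In those set at ND6, its mRNA medians were opposite in sign to those of shTCOF1. Against the same shControl library, its mRNA medians were 0.16 for the class higher and -0.02 for the class lower in numbered shKBTBD8 at ND3, beside the 0.63 and -0.65 of shTCOF1. For the classes higher and lower in numbered shKBTBD8 at ND6, the medians were -0.065 and 0.34 in this library, and 0.49 and -0.55 in shTCOF1. For the classes that rise and fall between ND3 and ND6, they were 0.345 and -0.24 in this library, and -0.21 and 0.21 in shTCOF1. In footprints, the classes set at ND3 had medians of 0.20 and -0.16 in this library, and 0.49 and -0.74 in shTCOF1. Whether the hairpin acted to the same degree in that library was not tested, since the level of KBTBD8 was not analysed here.

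**Figure D4:**
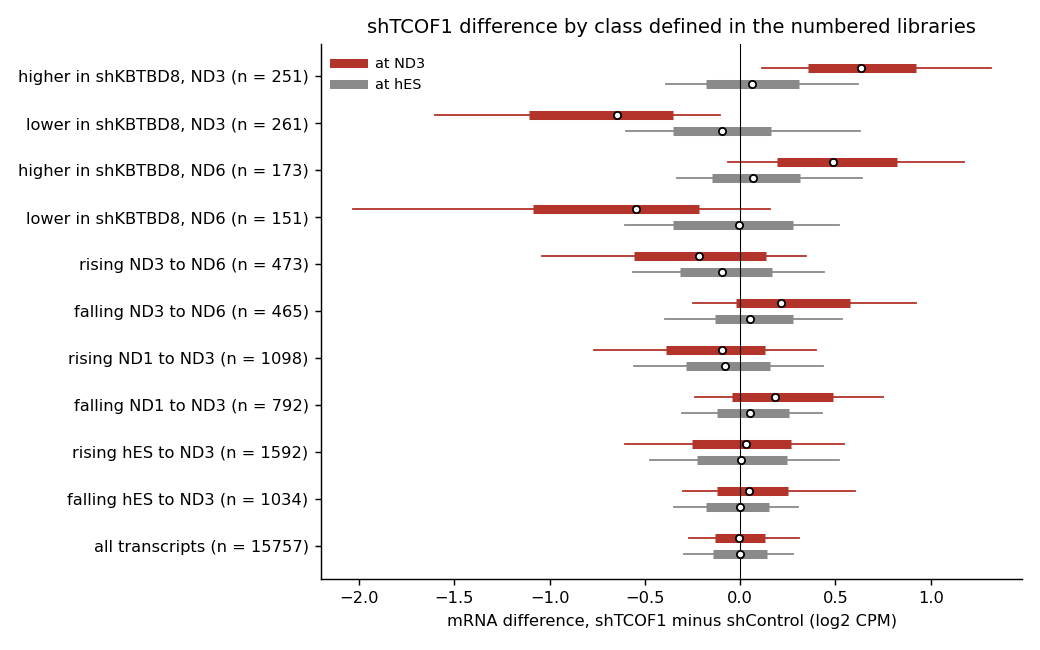
mRNA difference between shTCOF1 and shControl (log2 CPM, x axis) at ND3 (red) and in undifferentiated cells (grey) for classes of transcripts defined in the numbered libraries (rows); points are medians, thick bars span the quartiles and thin lines the 10th to 90th percentiles over transcripts. At ND3 the classes higher and lower in numbered shKBTBD8 centre on 0.63 and -0.65, and those that rise and fall between ND3 and ND6 on -0.21 and 0.21; at hES the medians of these 4 classes lie between -0.10 and 0.06.

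In undifferentiated cells the same transcripts had medians near 0. In numbered control cells the median level of the 103 lower ones was 2.02 (log2) higher at ND3 than at hES. Many of them thus had lower levels at hES, and the prior count of 2 draws differences at low counts toward 0. Its part in the hES medians was not tested. At hES, shTCOF1 against the mean of 2 shControl libraries had a median of 0.08 over the 99 higher transcripts, with 61 positive and 5 at least 2-fold higher, and of -0.05 over the 103 lower ones, with 59 negative and 7 at least 2-fold lower. Over all 15757 transcripts, 58 were at least 2-fold higher and 45 at least 2-fold lower at hES. In the opposite direction, 1 of the 99 was at least 2-fold lower and 4 of the 103 at least 2-fold higher. Members past 2-fold in either direction were thus a larger share of both lists than of all transcripts. The part of the low abundance of both lists in this was not tested. Tested directly, the shTCOF1 effect at ND3 differed from that at hES for few transcripts. In mRNA the edgeR test of the difference called 0 of 17665 transcripts higher and 1 lower (526 at an unadjusted p under 0.05), and this transcript was not among the 13 called at ND3. In footprints it called 4 of 17436 higher and 0 lower (844 at an unadjusted p under 0.05), all 4 of them among the 5 footprint calls described above.

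Identifiers are given for 2 higher and 2 lower transcripts. They rank first by edgeR p among 64 higher and 75 lower transcripts. These were past 2-fold in mRNA, outside the range of all 3 controls, and of the same sign in footprints. That sign was read without a limit on footprint counts. Only 28 of the 99 higher and 50 of the 103 lower transcripts had enough footprint counts. Their genes and functions are not named, because no table used here pairs the identifiers with genes. The value called edgeR SE below is the size of the log2 change divided by the square root of the test's F value. It rests on the spread within the groups of 2 libraries, not on the compared libraries.

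The transcript uc010pgd.2 had 32.8 CPM of mRNA in shTCOF1 and 14.7 in shControl, and 17.5 and 14.1 in the numbered controls. Of these 4 libraries shTCOF1 was the highest, and the 3 controls lay close together. The difference was 1.15 ± 0.19 (log2, edgeR SE; adjusted p = 0.029). In footprints it had 27.0 CPM in shTCOF1, 8.73 in shControl, and 18.4 and 8.15 in the numbered controls, a difference of 1.58 (edgeR adjusted p = 0.523). This transcript is lost during conversion. In numbered control mRNA it had 299.0 and 282.0 CPM at hES, 133.0 and 134.0 at ND1, and 0.85 and 0.79 at ND6, so that the level in shTCOF1 at ND3 lay between the ND1 and ND3 controls. At hES it had 350.0 CPM in shTCOF1, and 352.0 and 347.0 in shControl. At ND3, numbered shKBTBD8 had 54.0 and 47.3 CPM and the unnumbered shKBTBD8 library 18.0.

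The transcript uc001kil.2 had 101.0 CPM of mRNA in shTCOF1, 17.2 in shControl, and 54.1 and 59.7 in the numbered controls. Here shControl was the low library, and shTCOF1 stood above all 3 controls. The difference from shControl was 2.54 ± 0.42 (log2, edgeR SE; adjusted p = 0.029). It was 0.82 against the mean of the numbered controls, and the edgeR adjusted p was then 0.222. Without numbered control 1 or 2 the adjusted p was 0.0532 or 0.053. Footprints gave 95.2 CPM in shTCOF1, 4.5 in shControl, and 59.3 and 45.4 in the numbered controls. This footprint difference was not called in the main edgeR test. In numbered control mRNA it is transient, with 1.56 and 0.91 CPM at hES, 53 and 91.3 at ND1, and 2.41 and 3.17 at ND6, and numbered shKBTBD8 had 253.0 and 241.0 CPM at ND3. The unnumbered shKBTBD8 library had 20.5 CPM, near shControl. At hES the transcript had 3.89 CPM of mRNA in shTCOF1, and 1.13 and 2.01 in shControl, a difference of 1.31 (log2). In footprints it had 5.38 CPM in shTCOF1, and 1.27 and 0.0 in shControl, a difference of 2.81 at low levels. Both differences were in the same direction as at ND3.

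The transcript uc002uag.3 had 4.12 CPM of mRNA in shTCOF1, 25 in shControl, and 7.77 and 8.78 in the numbered controls. Of these 4 libraries shTCOF1 was the lowest and shControl the highest. The difference was -2.58 ± 0.33 (log2, edgeR SE; adjusted p = 0.00979), and -0.99 against the mean of the numbered controls, where the edgeR adjusted p was 0.0849. Footprints gave 1.49 CPM in shTCOF1, 24.7 in shControl, and 3.31 and 9.31 in the numbered controls. The shTCOF1 value rests on 8 counts, and the footprint difference was not called in the main edgeR test. Numbered shKBTBD8 mRNA had 0.719 and 0.781 CPM at ND3, and the unnumbered shKBTBD8 library had 19.3, nearer to shControl than to shTCOF1. At hES the transcript had 11.5 CPM in shTCOF1, and 11.3 and 14.2 in shControl. In numbered control mRNA it had 11.2 and 14.5 CPM at hES, 12.5 and 9.74 at ND1, and 34.8 and 26.1 at ND6. Of the numbered control levels, those at ND6 were nearest to that of shControl at ND3.

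The transcript uc010hqi.3 had 12.8 CPM of mRNA in shTCOF1, 35.3 in shControl, and 19.1 and 16.8 in the numbered controls. shTCOF1 was again below all 3 controls, which spread over a wider range than their distance to it. The difference was -1.46 ± 0.22 (log2, edgeR SE; adjusted p = 0.0264), and -0.48 against the mean of the numbered controls, with an edgeR adjusted p of 0.231. Footprints gave 3.9 CPM in shTCOF1, 8.35 in shControl, and 7.09 and 6.4 in the numbered controls. The first 2 rest on 21 and 65 counts, whose mean is under the limit of 50. This footprint difference was not called in the main edgeR test. This transcript rises late, with 1.73 and 1.28 CPM at hES, 5.57 and 5.78 at ND1, and 56.6 and 60.6 at ND6 in numbered control mRNA. Numbered shKBTBD8 had 7.15 and 6.85 CPM at ND3, while the unnumbered shKBTBD8 library had 55.1, above shControl and opposite to shTCOF1. At hES the transcript had 2.86 CPM in shTCOF1, and 2.27 and 2.96 in shControl. With all 3 controls as 1 group, the edgeR adjusted p of the last 3 transcripts was 0.496, 0.302 and 0.453.

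**Figure D5:**
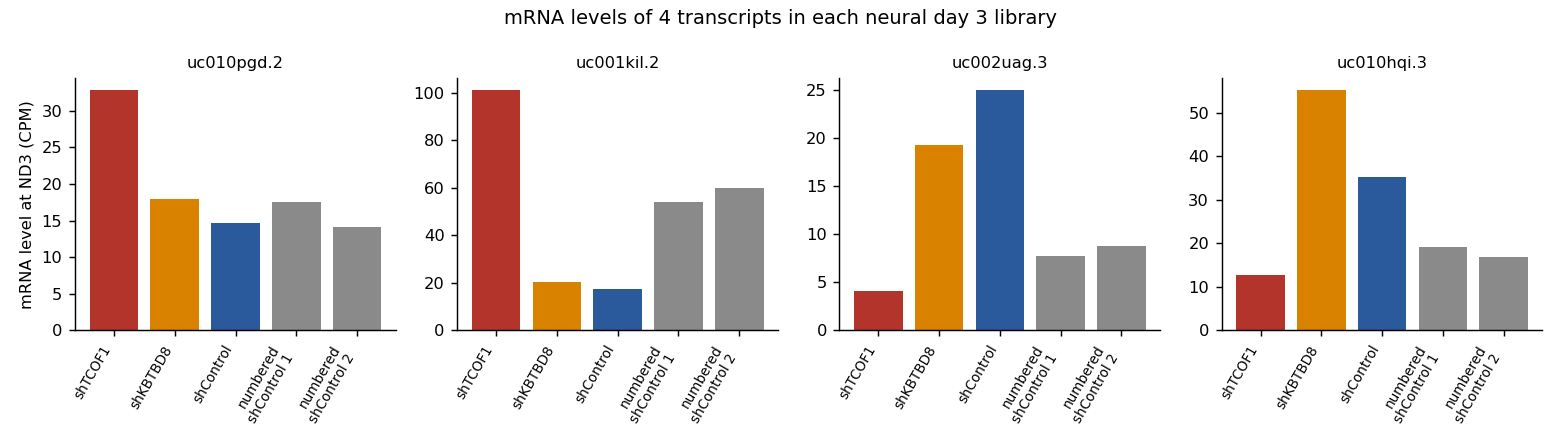
mRNA level (CPM, y axis, 1 scale per panel) of 4 transcripts in the ND3 libraries of shTCOF1 (red), unnumbered shKBTBD8 (orange), shControl (blue) and the numbered controls (grey); each bar is 1 library. shTCOF1 is above all 3 controls for uc010pgd.2 (32.8 CPM) and uc001kil.2 (101.0 CPM) and below them for uc002uag.3 (4.12 CPM) and uc010hqi.3 (12.8 CPM).

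Footprint differences without an mRNA difference were also counted. In footprints, 204 transcripts were at least 2-fold higher in shTCOF1 than in shControl and above all 3 controls, and 265 were at least 2-fold lower and below all 3. For 174 of the 204 and 209 of the 265 the mRNA difference was under 0.5 in size (log2). Over the 15757 transcripts measured in mRNA, the 10th and 90th percentiles of that difference were -0.269 and 0.308. Most of all transcripts thus met this limit as well. Without a limit on size, 18.8% of the 11472 transcripts lay above and 15.4% below all 3 controls in footprints. The share of transcripts past 2-fold between the numbered controls, 13.7%, was larger than that between shTCOF1 and shControl.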

How the data were processed

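Each library had 1 deposited table of 63691 transcript rows, without a header, whose values are whole-number counts as the authors deposited them; no normalization is stated. Per the submitters' processing notes, hg19, CASAVA 1.8, Bowtie2 2.0.6 and TopHat2 2.0.7 were used; for the counting program, strand and multiply mapped reads, the sources used here give nothing. Neighbouring isoform rows share reads. Rows averaging 10 or more counts, up to 20 rows apart, were joined if their chi-square per degree of freedom across 46 libraries was under 2; the most abundant row stood for each of the 17680 resulting transcripts. Near-identical copies and antisense genes may share reads. Size was called at 2-fold on log2 CPM (TMM, prior count 2, mean count of at least 50), and tests used edgeR 4.0.16 in R 4.3.3, with DESeq2 1.42.0 as an alternative; scripts were tested on simulated data. Other scalings, filters and control sets were tried. Precision is limited by the 1 library per group. The fixed gene lists needed names and could not be applied. The named identifiers follow the rule stated beside them. The comparison, lists and classes were chosen with earlier results of these data known.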

Additional observations from a re-analysis of the deposited data

Results flagged for a closer look

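The shTCOF1 effect at ND3 was tested against that at hES in edgeR, and the difference passed for 1 transcript in mRNA and for 4 in footprints. The mRNA transcript was lower at ND3 relative to hES and was not called at ND3 itself. The 4 footprint transcripts were all called at ND3, in a comparison where 3 of 5 calls had no count in the shControl library, whose part in these 4 was not tested.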

How the results depend on the processing

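Counts past 2-fold moved with the abundance limit, the control and the grouping of rows. In mRNA they were 222 higher and 180 lower at a mean count of at least 10, 38 and 49 at 200, 222 and 291 with every row as deposited, and 162 and 246 against the numbered controls. In footprints they were 1526 and 1193, 47 and 67, and 1163 and 1468 in the first 3 of these settings, 129 and 137 against the mean of all 3 controls, and 264 and 166 against the numbered controls. DESeq2 called 56 transcripts in mRNA and 14 in footprints. With only the ND3 shTCOF1 and shControl libraries, edgeR called 200 in mRNA, 184 in footprints and 0 in TE (1507 at an unadjusted p under 0.05). With only the set that holds the compared libraries it called 34 in mRNA, 0 in footprints (635 unadjusted) and 0 in TE (993 unadjusted). All 3 controls as 1 group gave 0 in footprints (167 unadjusted) and 0 in TE (129 unadjusted), where DESeq2 with the unnumbered control had called 14 and 56. The numbered controls, a choice made after seeing the data, gave 429 calls in mRNA, 7 in footprints (3 higher and 4 lower, against 5 and 0) and 6 in TE. Leaving out 1 replicate gave 13 to 14 calls in mRNA, 5 to 6 in footprints and 38 to 52 in TE. The class medians kept their sign under each scaling, prior count and abundance limit tried, choices also made after seeing the data. Class medians were not taken against the numbered controls, which serve to define the classes. The median of the class that falls between ND3 and ND6 was 0.237 with total count scaling, 0.253 at a mean count of at least 10 and 0.172 at 200 in mRNA, and 0.187 at 200 in footprints. That of the class lower in numbered shKBTBD8 at ND3 was -0.57 at 200 in mRNA and -0.816 at 10 in footprints. The cause of these shifts was not tested. No paired analysis was possible because the compared groups hold 1 library each with no replicate number. Footprint depths of 5.39 M counts in shTCOF1 and 7.68 M in shControl left 11413 of 15757 transcripts measurable in both assays.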

Other observations

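Between the numbered ND3 control mRNA libraries, all 66 transcripts past 2-fold at a mean count of at least 50 were lower in control 1 than in control 2, and 0 were higher. In footprints, 610 were higher and 832 lower.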
